A study of Rattus norvegicus with 10 samples.

Results

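The muscle consensus open chromatin comprised 89333 regions of the rat autosomes in which every one of 5 gastrocnemius libraries had a peak. They were found by merging the peak intervals of the 5 muscle lists on chromosomes 1 to 20 wherever intervals overlapped by at least 1 bp, and by keeping the merged regions that held an interval from all 5 lists, whatever the adipose lists held. They made up 29.0% of the 307997 merged muscle regions, and 55.1% of the sequence that any muscle library called. The members were thus chosen by the peak calls of the 5 muscle lists, and their values in those lists are a description and not a test. The tests below use the adipose lists, which the choice did not use.

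ATAC-seq treats nuclei with a transposase that inserts sequencing adapters where DNA is not wrapped in nucleosomes or otherwise covered, and a peak is a stretch with more insertions than the local background. Promoters, enhancers and insulators are the usual places of such open DNA. A summit is the point of highest signal within a peak, and a wide peak may hold several of them. The gastrocnemius is a calf muscle of mostly fast fibres whose multinucleate myofibres are accompanied by satellite cells, endothelial cells, fibroblasts and immune cells. A bulk library mixes the nuclei of all of these, so that the share of nuclei in which a region is open cannot be told apart from the degree to which it is open in each.

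All 10 libraries analysed, 5 from gastrocnemius muscle and 5 from abdominal white adipose tissue, are labelled as coming from male Fischer 344 rats aged 8 months, with no treatment that differs between groups. About 75000 nuclei were tagmented for each. Samples were taken from single animals or were aliquots of powdered tissue pooled over 15 males, without a statement of which library is which kind, so the spread between libraries may be partly technical. Titles use the same rat numbers, 1 to 5, for the muscle and the adipose libraries, and do not say whether a number is 1 animal. The design names 9 samples per tissue, and those beyond the 10 were not analysed here. Positions are on build rn6. Genes, promoters and sequences of that build were not used here, so that the tissue labels were not checked against marker genes and regions are named by position.

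Some features of the lists bear on the results. On chromosomes 1 to 20 a muscle list held 161606 to 186204 peaks and an adipose list 239975 to 256339. Muscle lists ran down to a −log10 p of 2.00 and adipose lists to 3.26 to 4.27, depending on the library. Read totals are not given in the sources used here, so depth is unknown. Adipose replicates 2, 3 and 4 had 2.78% to 3.47% of their peaks on chromosome X and at most 1 peak on chromosome Y, against 1.07% and 1.45% on X and 31 and 45 Y peaks in adipose replicates 1 and 5. Muscle libraries had 1.41% to 1.74% on X and 16 to 24 Y peaks. These 3 adipose libraries go against their male label. The tested differences in adipose peaks at muscle summits are therefore also given with adipose replicates 1 and 5 alone. So are the counts of members under a peak of none or all adipose libraries, and the share of adipose peaks in long stretches. Other adipose results, among them the regions called in all 5 adipose libraries, were not redone without these 3.

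Most muscle regions were called either in 1 library or in all 5. Of the merged muscle regions, 139680 (45.4%) had a peak in 1 library, 35871 in 2, 22254 in 3, 20859 in 4 and 89333 in all 5. The regions of 1 library covered 28.8 Mb, and the members 71.4 Mb. With only the 50000 strongest peaks of each library, 36690 regions held a peak of all 5. Just outside the rule, the regions of 4 libraries covered 9.62 Mb and had a median width of 418 bp, against 737 bp for the members just inside it. The median rank of fold enrichment, as the mean percentile within the muscle lists that called the region, was 39.6 for regions of 4 libraries and 71.6 for members. Fold enrichment here is the authors' own value at a summit, and it is used to rank peaks within a list. A single summit was listed in 82.6% of the regions of 4 libraries and in 53.5% of the members, and 3 or more summits in 0.412% and 16.7%.

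**Figure D1:**
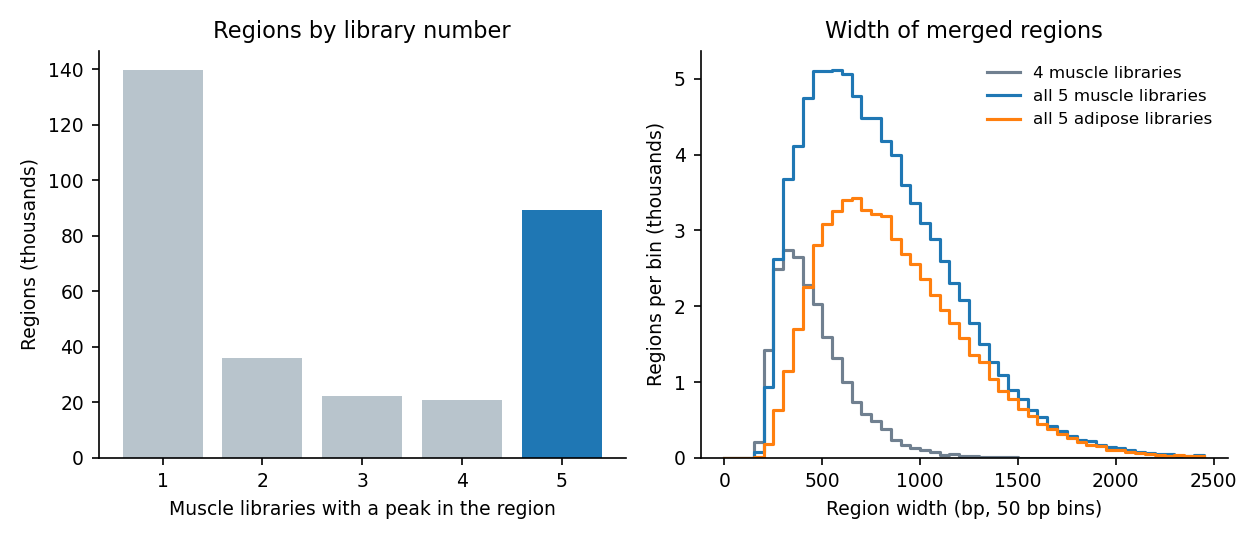
Number of merged muscle regions by how many of the 5 muscle libraries have a peak in them (left, regions in units of 1000) and width of the regions of 4 muscle libraries, all 5 muscle libraries and all 5 adipose libraries (right, regions in units of 1000 per 50 bp bin). The 89333 members are the right-hand bar, and their widths peak near 500 to 600 bp with a long upper tail.

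Most of what each muscle library called lay in the members. In muscle replicates 1 to 5 they took up 53.0%, 59.8%, 56.3%, 60.9% and 57.3% of the peaks. Because members are wide, they took up 71.7%, 78.8%, 75.2%, 78.0% and 74.5% of the called length. A strong peak is one with a −log10 q of at least 5. Of the strong peaks 84.5% ± 5.80 (SD, n = 5) lay in members, with muscle replicate 5 lowest at 75.1% and muscle replicate 4 highest at 90.2%. Of the other peaks 21.8% ± 4.89 did. Regions called by 1 library alone numbered 40588 in replicate 1 and 21418 to 27525 in each of the others. The regions of 4 libraries were each missed by 1 library, and replicates 1 to 5 missed 4704, 5992, 2595, 4837 and 2731 of them.

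Within the members the libraries ranked regions much alike. Spearman's rho between the percentiles of 2 libraries over the 89333 members lay between 0.860 and 0.919 in the 10 pairs, with a median of 0.872. All pairs share the call that chose the members, and the value describes these libraries. The median fold enrichment at members was 5.68, 5.16, 5.70, 5.44 and 7.33 in muscle replicates 1 to 5, so replicate 5 was the highest and the others lay close together. The share of members that were strong was 88.0%, 85.3%, 89.4%, 83.5% and 94.0% in the same order. In all 5 libraries 64218 members (71.9%) were strong, and 1022 (1.14%) were strong in none.

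Reproducibility was also described with each library left out in turn, as the share of regions called in all other 4 libraries in which the left-out library had a peak. These shares restate the calls behind the choice, since the regions recovered (89494 to 89962 in muscle) are nearly the members and the rest are the regions of 4 libraries that the left-out library misses. The 5 shares of a tissue also have libraries in common, so no test is drawn from them. With muscle replicates 1 to 5 left out in turn, 95.0%, 93.8%, 97.2%, 94.9% and 97.0% of the regions of the other 4 were recovered. The mean was 95.6% ± 1.49 (SD, n = 5), over 92218 to 95954 regions. The same measure in adipose gave 84.3%, 90.0%, 93.5%, 91.3% and 93.1% for replicates 1 to 5, with a mean of 90.4% ± 3.73. All muscle values lay above all adipose values, by 5.12 points on average. Restricted to strong peaks the difference was 4.38 points, and at the −log10 p floor of 4.27 that all lists share it was 4.95 points. Leaving out any 1 muscle library, so that muscle regions are asked for in 3 others and adipose regions in 4, gave 2.93 to 3.41 points, and leaving out any 1 adipose library 8.96 to 10.4 points. Leaving out the same replicate number in both tissues gave 7.25 to 8.50 points.

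Recovery followed how many other libraries had called a region. When 1 of the other 4 muscle libraries had a peak, the left-out library had one in 12.8% ± 1.99 of regions (n = 5). With 2, 3 and 4 others the share was 39.2% ± 5.12, 65.6% ± 6.05 and 95.6% ± 1.49. In the opposite direction, 57.3% ± 3.09 of the peaks of a left-out muscle library lay in regions of the other 4, against 26.6% ± 0.600 in adipose (SD, n = 5 each).

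Wide and high-ranking regions came back almost without loss. Of regions at least 1000 bp wide in the other 4 muscle libraries, 99.7% ± 0.134 were recovered, with 99.5% as the lowest. Of regions under 500 bp, 89.8% ± 3.06 were recovered, with 93.1% as the highest. A peak anywhere in the region counted as recovery, so a wide region had more chance to be met than a narrow one. The difference was 9.88 ± 2.94 points, a description like the other held-out values. Wide regions also rank higher. Taken within 5 equal classes of rank and averaged, the difference was 4.31 ± 1.53 points. With the 50000 strongest peaks of each library it was 6.10 points. Neither setting removes the larger target that a wide region offers. By rank itself, the highest of 10 equal classes was recovered in 99.99% ± 0.0190 of cases and the lowest in 82.1% ± 3.75, a difference of 17.9 ± 3.75 points. That difference was 11.6 points for strong peaks and 7.24 points for the 50000 strongest peaks. From the sixth class upward every muscle library recovered at least 99.2% of the regions. The regions that were missed had a median width of 417 ± 10.1 bp, and those recovered 703 ± 12.1 bp (n = 5).

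**Figure D2:**
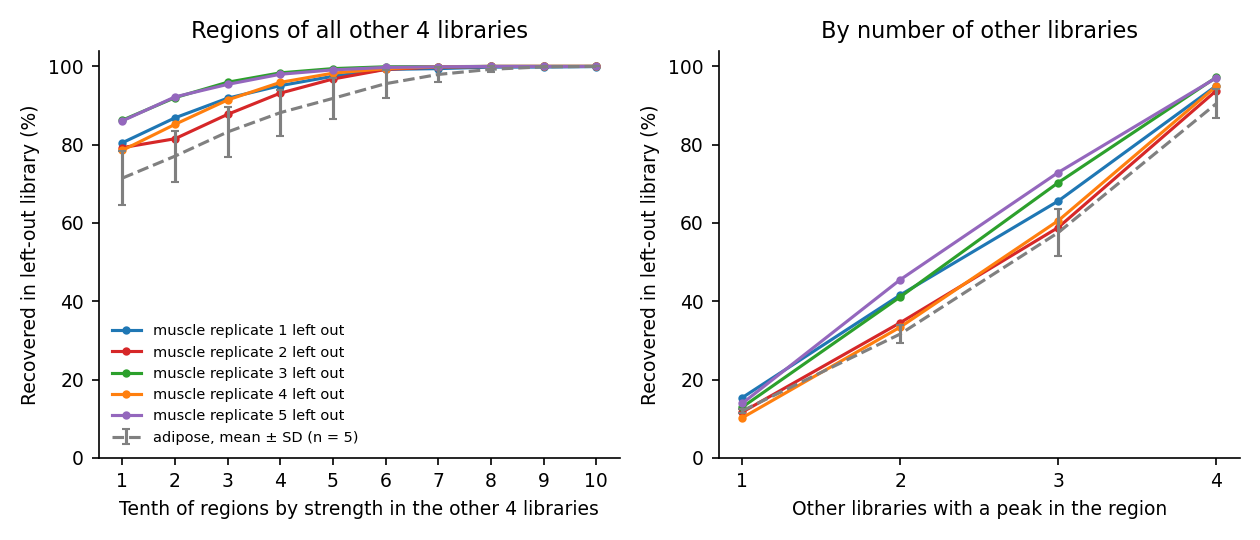
Percent of regions called in the other 4 libraries of a tissue that the left-out library also called, by class of rank in the other 4 libraries (left, 1 is the weakest of 10) and by how many other libraries called the region (right). Coloured lines are single muscle libraries and the grey dashed line is the adipose mean with SD (n = 5): muscle recovery rises from 78.6% to 86.3% in the weakest class to nearly 100% in the strongest.

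Member widths were spread over more than an order of magnitude. The narrowest was 150 bp, which is also the narrowest peak of every list, and the widest 4095 bp. The middle 50% of members lay between 510 and 1025 bp, and 5% were wider than 1496 bp. Under 500 bp lay 21271 members (23.8%), from 500 to under 1000 bp 44154 (49.4%), from 1000 to under 2000 bp 23263 (26.0%) and at 2000 bp or more 645 (0.722%). A merged region spans from the outermost left to the outermost right edge of the peaks joined in it, and so is at least as wide as any of them. The length called by all 5 libraries had a median of 346 bp, or 55.1% of a member's width. The left or right edge moved over a range of 123 bp (median) across libraries. In 1502 members (1.68%) no base was called in all 5 libraries, and in 5956 (6.67%) a library had a median of more than 1 peak.

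Regions called in all 5 adipose libraries were fewer, 58591 of 651178 merged adipose regions, and had a median width of 814 bp. Of these, 53.8% had 1 summit, close to the 53.5% of the muscle members, and 5.23% had no base common to all libraries.

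**Figure D3:**
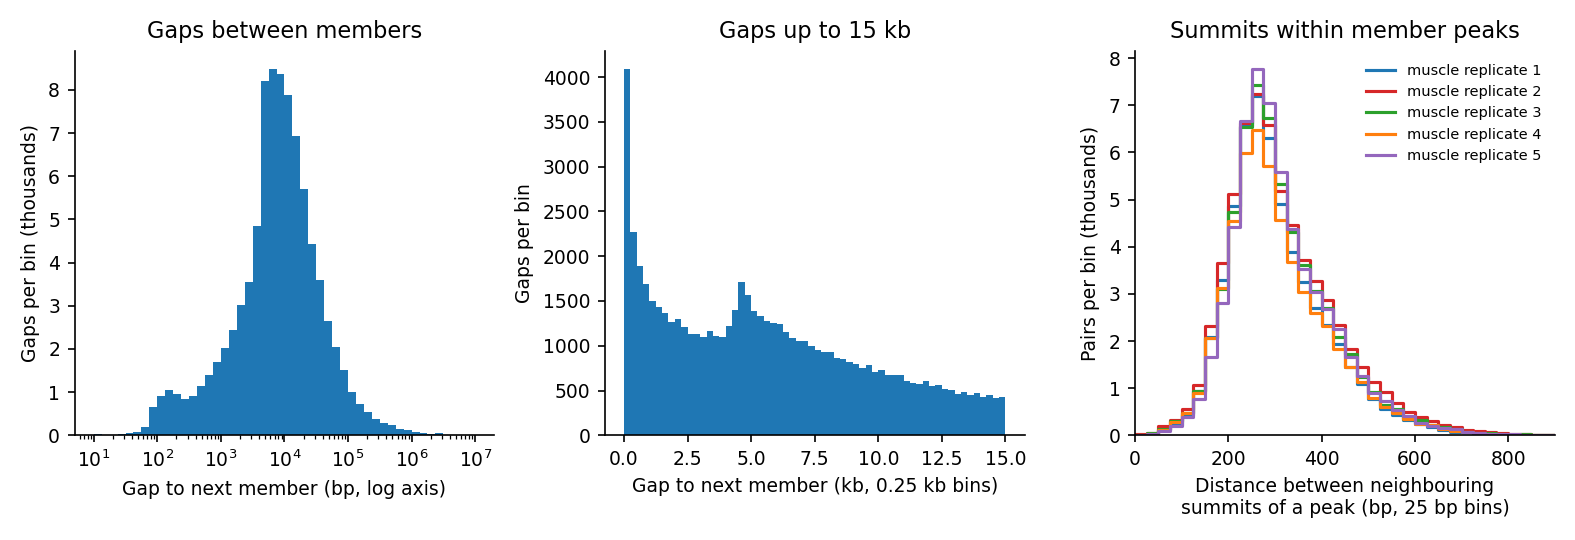
Gaps between neighbouring members on a log axis (left, in units of 1000 per bin), the same gaps up to 15 kb in 0.25 kb bins (middle), and distances between neighbouring summits of a peak within members in each muscle library (right, 25 bp bins). Gaps have a median of 8073 bp with a rise in number near 5 kb, and the summit distances of all 5 libraries peak between 250 and 275 bp.

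Members with more summits were wider. A member's number of summits was taken as the median over the 5 libraries. It was 1 in 47754 members (53.5%), 2 in 26640 (29.8%), 3 in 10366 (11.6%), 4 or 5 in 4234 (4.74%) and 6 or more in 339 (0.379%). Median width was 535 bp with 1 summit, 899 bp with 2, 1217 bp with 3, 1507 bp with 4 and 1788 bp with 5. Neighbouring summits of a peak stood 284 to 292 bp apart at the median of each library, and 289 bp apart over all 293473 distances. In each of the 5 libraries the fullest 25 bp bin of these distances was that from 250 to 275 bp. Only 5% of distances were under 165 bp, and 1% under 109 bp. The settings of the summit finding are not given in the labels, and a lower limit on the distance that the caller may impose was not tested.

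The main summit was placed more closely than the edges. The strongest summits of the 5 libraries lay within a median of 38 bp of each other. They lay within 50 bp in 53977 members (60.4%) and within 100 bp in 67293 (75.3%). Members with 3 or more summits were of 2 kinds in this respect: their median range, 27 bp, was below the 40 bp of members with 1 summit, but the strongest summits lay within 200 bp in 73.9% of them, against 93.1% of the members with 1 summit. The number of summits itself was less stable. All 5 libraries listed the same number in 32354 members (36.2%), of which 26175 had 1 summit in every library. The mean number per member was nevertheless close between libraries, from 1.74 in replicate 1 to 1.79 in replicate 2.

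Higher-ranking members were wider, held more summits and had more closely placed main summits. In 5 equal classes by mean percentile, from weakest to strongest, the median width was 499, 589, 713, 882 and 1039 bp, and the share of members with 1 summit 75.0%, 65.4%, 54.5%, 42.2% and 30.2%. The strongest summits of the 5 libraries lay within 96, 59, 40, 28 and 18 bp of each other at the median of these classes. The share of the width called in all 5 libraries was 38.6% in the weakest class and 72.1% in the strongest. The edges showed no such order, with median ranges of 125, 126, 125, 130 and 111 bp. These values come from the lists that chose the members and are a description.

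At the very top the order of width and number of summits turned, most sharply in the first few members. The 5 members whose lowest percentile over the 5 lists was highest were 226 to 415 bp wide, had 1 summit in every library, and had edges that moved by a median of 1.5 bp. The first, on chromosome 19 at 57975234 to 57975550, had fold enrichments of 57.1, 55.8, 55.8, 55.5 and 56.3 in muscle replicates 1 to 5, and of 56.0, 50.0, 56.5, 57.0 and 57.9 in adipose replicates 1 to 5. The second, on chromosome 14 at 15692491 to 15692716, had 51.3 ± 1.32 in muscle (SD, n = 5) and 24.5 to 54.9 in adipose. The next were on chromosome 2 at 110305554 to 110305794 (48.7 ± 3.05) and on chromosome 15 at 56682073 to 56682334 (44.5 ± 1.43), both with a peak in all 5 adipose libraries. The fifth, on chromosome 7 at 10509197 to 10509611 (39.6 ± 1.87), had a peak in adipose replicates 1 and 5 only, at 21.0 and 23.9, and none in the adipose replicates 2, 3 and 4 that go against their label. Fold values of the tissues are set side by side as listed and were not tested. At the summit, 41.2% of all members and 69.6% of the strongest of 5 classes had a peak of all 5 adipose libraries. Of the first 20, 100 and 1000 members by lowest percentile, 19, 97 and 944 had a peak of all 5 adipose libraries at the summit. Their median widths were 787.5, 884.5 and 966 bp, and 70%, 42% and 35.3% of them had 1 summit. The first 1000 were thus much nearer to the strongest class than the first few. No region was filtered out here for unusually high signal, and whether the first few are artefacts was not tested.

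The widest members ranked far lower. The widest, on chromosome 3 at 175780785 to 175784879, spanned 4095 bp, of which 3494 bp were called in every library. Its fold enrichment was 2.43, 2.69, 2.22, 2.26 and 2.96 in muscle replicates 1 to 5, with 10 to 12 summits, and no adipose library had a peak in it. The next, on chromosome 1 at 221770656 to 221774707 (4052 bp), had 8 to 12 summits and a fold of 3.50 ± 0.880 (n = 5), and 4 adipose libraries had a peak at its summit. On chromosome 12 at 36643281 to 36647138 a member of 3858 bp had 6 to 13 summits, a fold of 5.98 ± 0.450, and a peak of every adipose library at its summit. The remaining ones were on chromosome 9 at 8772928 to 8776623 (3696 bp) and on chromosome 3 at 152908420 to 152911627 (3208 bp). The first 3 of these also came first by number of summits. They were followed by a member on chromosome 17 at 9952229 to 9955179, which had 10 summits in each of the 5 libraries over 2951 bp, and by a member on chromosome 1 at 19998322 to 20000880, with 8 or 9 summits and a fold of 12.8 ± 1.01. At the last member the strongest summit moved by no more than 17 bp over the 5 libraries, whereas at the widest it moved by 2050 bp.

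The adipose lists gave an independent reading of the members. A member was read at 1 position, the median of its strongest summits in muscle, so that wide members had no more chance than narrow ones to meet an adipose peak. Adipose peaks covered 3.07% to 3.40% of the chromosomes. Adipose replicates 1 to 5 had a peak at the summit of 51.2%, 58.8%, 62.1%, 56.4% and 58.9% of the members, with adipose replicate 1 the lowest. In the regions of 4 muscle libraries the shares were 30.7%, 37.3%, 44.2%, 36.3% and 40.6%. The member value was higher in 5 of 5 adipose libraries, by 19.7 ± 1.55 points (two-sided exact sign-flip p = 0.063, the smallest 5 libraries allow, Benjamini-Hochberg adjusted p = 0.063 over 7 tests), and by 19.4 points in adipose replicates 1 and 5 alone. Averaged over 5 classes of rank it was 19.1 points. These classes pooled both kinds of region and counted equally, however few of a kind one held. At a similar median rank the shares lay closer. The weakest of 5 equal classes of members (median percentile 38.2) had an adipose share of 40.4% ± 4.95. The regions of 4 libraries (median percentile 39.6) had 37.8% ± 5.07. With 5 adipose libraries neither the comparison of members with regions of 4 libraries nor the following adipose comparisons can pass 0.05. What they give is the direction and the spread over adipose libraries. All of these were read at the same muscle regions, so that spread does not measure how the differences vary between muscle libraries. Over regions of 1, 2 and 3 muscle libraries the adipose share was 11.6% ± 1.00, 21.1% ± 2.99 and 29.9% ± 4.15.

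Some members were under a peak in every adipose library and others in none. No adipose library had a peak at the summit of 23923 members (26.8%), where 51.7% of all merged muscle regions had none. All 5 adipose libraries had one at 36771 members (41.2%), where 15.1% of all merged muscle regions did. With adipose replicates 1 and 5 alone, 32959 members (36.9%) had a peak of neither and 42013 (47.0%) of both, against 64.4% and 19.8% of all merged muscle regions. The members with 1, 2, 3 and 4 adipose libraries were 7879, 5904, 6185 and 8671. Counted as whole regions, 40756 members (45.6%) overlapped a region called in all 5 adipose libraries, and 40597 (69.3%) of those adipose regions overlapped a member.

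Wide members met an adipose peak more often than narrow ones. The adipose share was 43.6% ± 4.89 for members under 500 bp, 55.9% ± 4.25 from 500 to under 1000 bp, 72.7% ± 2.91 from 1000 to under 2000 bp and 75.4% ± 3.02 from 2000 bp (SD over adipose libraries, n = 5). Members of at least 1000 bp exceeded those under 500 bp by 29.2 ± 1.99 points, in 5 of 5 adipose libraries (exact sign-flip p = 0.063, adjusted p = 0.063) and by 30.4 points in adipose replicates 1 and 5 alone. Wide members also rank higher in the muscle lists. Within 5 classes of rank the mean difference was 15.9 ± 1.03 points, still in 5 of 5.

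Members with several summits differed from those with 1 in the same direction. The adipose share was 49.8% ± 4.58 with 1 summit, 62.0% ± 3.79 with 2, 72.4% ± 3.05 with 3 and 77.6% ± 2.31 with 4 or more. The difference between 3 or more summits and 1 was 24.2 ± 1.79 points in 5 of 5 adipose libraries (exact sign-flip p = 0.063, adjusted p = 0.063), 25.3 points in adipose replicates 1 and 5 alone, and 14.5 ± 1.16 points within classes of rank. By rank alone the adipose share rose from 40.4% ± 4.95 in the weakest of 5 classes through 50.6%, 56.8% and 62.7% to 76.9% ± 1.74 in the strongest.

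**Figure D4:**
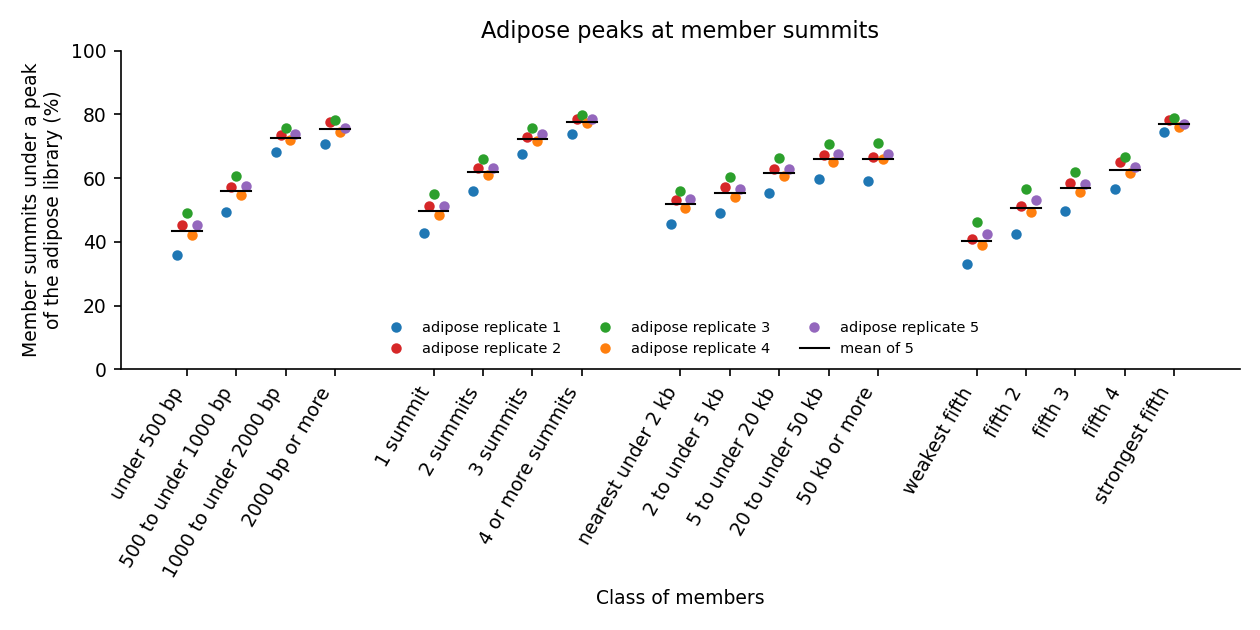
Percent of members with an adipose peak at their muscle summit, by member width, number of summits, distance to the nearest member and class of rank in the muscle lists; points are the 5 adipose libraries and bars their mean. The share rises with width (43.6% to 75.4%), summits (49.8% to 77.6%) and rank (40.4% to 76.9%), and is lowest for members within 2 kb of another (51.8%); adipose replicate 1 is the lowest library in each class.

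Members came in groups. The gap from a member to the next had a median of 8073 bp, with quartiles of 3451 and 18917 bp, and the nearest member on either side was 4413 bp away at the median. Another member lay within 1 kb of 18662 members (20.9%) and within 2 kb of 28236 (31.6%). At least 20 kb from any other were 8760 members (9.81%), and at least 50 kb 2681 (3.00%). Regions of all 5 adipose libraries, which are fewer, had a median gap of 14927 bp. The gaps did not fall off evenly. There were 4469 gaps from 3 to 4 kb, 6003 from 4.5 to 5.5 kb and 3930 from 7 to 8 kb, so that the middle class held 1.34 times the first. Between all deposited peaks, members or not, this ratio was 1.13 to 1.27 in the 5 muscle libraries and 1.22 to 1.27 in the 5 adipose libraries. The rise near 5 kb is therefore not particular to the members, and its source was not tested.

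Members with a close neighbour were less often under an adipose peak than isolated ones. The adipose share was 51.8% ± 3.97 for members with another within 2 kb, 55.5% ± 4.22 from 2 to 5 kb, 61.6% ± 3.98 from 5 to 20 kb, and 66.0% ± 4.13 from 20 kb. Close members were lower by 14.3 ± 0.409 points than those at least 20 kb away, in 5 of 5 adipose libraries (exact sign-flip p = 0.063, adjusted p = 0.063), and by 14.0 points in adipose replicates 1 and 5 alone. Close members were also narrower, with a median of 631 bp against 738 bp, and ranked lower, at 63.0 against 77.4. In members under 500 bp, from 500 to under 1000 bp and of 1000 bp or more, the close members were lower by 12.8 ± 1.51, 10.6 ± 0.721 and 13.7 ± 1.30 points, each in 5 of 5 libraries. Within classes of rank the difference, close minus isolated, was -7.42 ± 1.15 points, in 5 of 5.

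With neighbours no more than 5 kb apart joined into runs, 39922 members (44.7%) stood alone, 42256 (47.3%) were in runs of 2 to 4, 6542 (7.32%) in runs of 5 to 9 and 613 (0.686%) in the 53 runs of 10 or more. The adipose share was 62.6% ± 4.01 for members alone, 54.1% ± 4.17 in runs of 2 to 4, 48.7% ± 3.55 in runs of 5 to 9 and 50.5% ± 3.41 in the longest.

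Over all members, 26.8% had no adipose peak at the summit and 41.2% had a peak of all 5 adipose libraries there. The runs with the most members differed among themselves in adipose. The first, on chromosome 12 at 23237702 to 23295683, had 18 members in 58.0 kb, with 22 to 25 peaks in a muscle library and 6 to 10 in an adipose library, and 12 of its members had no adipose peak at the summit. The second, on chromosome 16 at 22064125 to 22105962, had 16 members in 41.8 kb. There the tissues were level, with 18 to 22 peaks in muscle and 17 to 22 in adipose, and 14 members had a peak of all 5 adipose libraries. On chromosome 1 at 55696735 to 55724856 there were 15 members, 17 to 19 muscle peaks and 16 to 21 adipose peaks. The 14 members on chromosome 1 at 221193840 to 221213944 stood densest, covering 37.0% of 20.1 kb, with 15 or 16 muscle peaks and 7 to 10 adipose peaks. The 14 on chromosome 4 at 82179826 to 82216274 had 16 to 19 muscle peaks and 4 to 11 adipose peaks.

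Over the 20 autosomes there were 34.1 members per Mb, which covered 2.73% of 2618 Mb. The length of a chromosome was taken as the end of its last deposited peak. Chromosome 10 was densest, with 6162 members or 54.7 per Mb, before chromosome 12 (48.7), chromosome 20 (46.2) and chromosome 19 (42.3). The lowest density was on chromosome 2, with 6634 members or 24.9 per Mb, then chromosome 15 (26.2) and chromosome 14 (27.2). Width and spacing varied far less: median width was between 717.5 bp on chromosomes 2 and 4 and 806 bp on chromosome 12, and the share of members with another within 2 kb between 29.4% on chromosome 18 and 35.1% on chromosome 20. Regions of all 5 adipose libraries, at 22.4 per Mb, were also densest on chromosome 10 (32.3). The number of members per such adipose region was 1.52 over all autosomes, with the lowest value on chromosome 2 (1.38) and the highest on chromosome 10 (1.70). The share of members with an adipose peak was lowest on chromosome 18 in each of the 5 adipose libraries, at 52.5% ± 3.50. It was highest on chromosome 20 in 3 of them and on chromosome 7 in the other two, with means of 60.8% ± 4.07 and 60.4% ± 3.89.

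**Figure D5:**
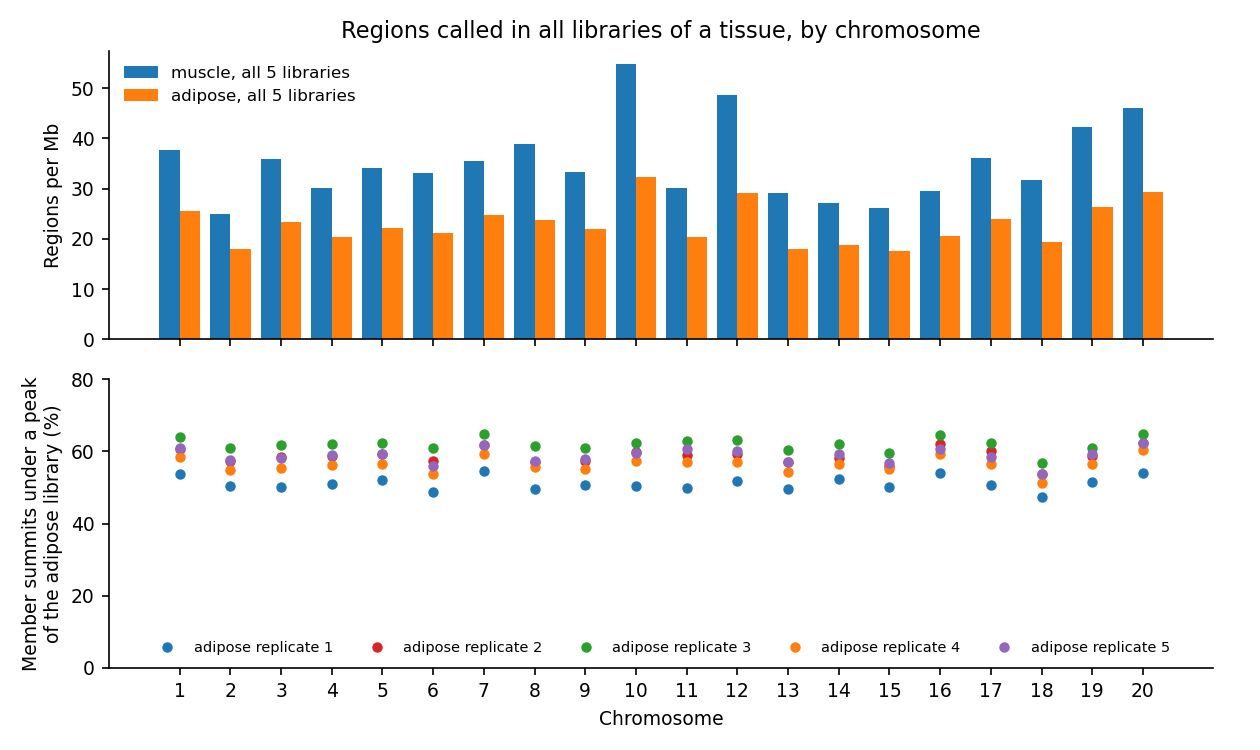
Regions called in all 5 libraries of a tissue per Mb of each autosome (top) and percent of members with a peak of each adipose library at the summit (bottom, 5 points per chromosome). Chromosomes 10, 12 and 20 have the most members per Mb (54.7, 48.7 and 46.2), and chromosome 18 has the lowest adipose share in all 5 libraries.

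Along a chromosome the members leaned towards the end with the higher coordinates. With each autosome divided into 10 equal parts, density over all autosomes was 31.6, 31.8, 23.9, 33.6, 30.1, 28.9, 34.9, 41.0, 42.4 and 43.1 members per Mb, from low to high coordinates. In the tenth part, single chromosomes ranged from 4.09 to 72.1 per Mb. Adipose regions of all 5 libraries gave 21.9, 21.5, 17.4, 21.5, 20.2, 19.0, 22.0, 27.0, 26.5 and 26.8 per Mb over the same parts, with the same low in the third part.

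In windows of 1 Mb the members were concentrated. Of 2608 windows the median held 27 members, with quartiles of 6 and 55, and 258 (9.89%) held none. The densest 261 windows held 28.3% of all members. Over these windows the number of members and the number of adipose 5-library regions had a Spearman rho of 0.900, and the members of neighbouring windows one of 0.576. Both are descriptions over windows, and neighbouring windows are not independent. In windows of 100 kb the median was 2, and 10090 of 26173 (38.6%) held no member.

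The window with the most members was on chromosome 3 at 164000001 to 165000000, with 151 members. Each muscle library had 208 to 227 peaks there and each adipose library 175 to 198. No adipose peak lay at the summit of 35 members (23.2%), against 26.8% of all members. The shares of the next windows were read at the summit as well. Adjacent windows on chromosome 7, at 11000001 to 12000000 and 12000001 to 13000000, held 144 and 136 members, of which 20.8% and 12.5% had no adipose peak. On chromosome 5 at 167000001 to 168000000 there were 133 members. There the adipose libraries had 141 to 173 peaks against 227 to 238 in muscle, and 29.3% of the members had no adipose peak. On chromosome 16 at 20000001 to 21000000 there were also 133 members, 15.8% of them without an adipose peak.

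Between the groups lay long stretches without a member. The 3685 gaps of at least 100 kb, 4.13% of all gaps, took up 53.9% of the length between members, and the 257 gaps of at least 1 Mb took up 512 Mb, or 19.6% of the chromosomes. Per library, 1.73% ± 1.27 of the muscle peaks (0.683% to 3.93%) and 17.8% ± 3.35 of the adipose peaks (13.0% to 21.9%) lay in them, with 18.7% and 19.0% in adipose replicates 1 and 5. The low muscle share follows in part from the choice, because a stretch ends wherever all 5 muscle libraries meet. The mirror case was therefore counted: 117 gaps of at least 1 Mb between adipose 5-library regions spanned 170 Mb, 6.48% of the chromosomes, and contained 0.834% ± 0.237 of a muscle list and 429 members (0.480%). Most adipose peaks in the muscle stretches were weak. Of the strong adipose peaks 6.45% ± 4.07 lay there, with replicate 4 highest at 13.4% and the others between 3.51% and 5.97%, and of the strong muscle peaks 0.247% ± 0.121. Adipose 5-library regions in these stretches numbered 1882, or 3.21% of such regions.

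The longest stretch without a member was on chromosome 13 at 5448124 to 14948081, over 9.50 Mb. Muscle replicates 1 to 5 had 50, 27, 28, 90 and 8 peaks in it, of which 0 to 2 were strong. Adipose replicates 1 to 5 had 1038, 680, 527, 1024 and 1059, of which 53, 32, 42, 249 and 97 were strong. The other 4 were on chromosome 3 at 72657119 to 79069661 (6.41 Mb), chromosome 13 at 26926574 to 33320220 (6.39 Mb), chromosome 7 at 3402790 to 9658102 (6.26 Mb) and chromosome 7 at 83701809 to 89724142 (6.02 Mb). In each of the 5 stretches every adipose library had more peaks than every muscle library. The stretches were chosen for lacking muscle members, and the adipose lists are longer, so this contrast follows in part from the choice. It is a description. Of the 258 windows of 1 Mb without a member, 250 had a peak of every adipose library and 227 held an adipose 5-library region, and 5 had no muscle peak at all. Over all 2608 windows, 53 held no adipose 5-library region, and 22 of these had a member. Windows without a member thus lacked such an adipose region more often than windows with one.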

How the data were processed

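ATAC-seq peak lists of 5 muscle and 5 adipose libraries on build rn6 were analysed. Per the submitters' processing notes the tools were FastQC, Trimmomatic, Bowtie2, Picard and MACS2, with no version given, and each library has its own list. Read shifting and the treatment of duplicates are not given in the sources used here. Each deposited row holds a score, a fold enrichment at the summit, and the −log10 p and −log10 q, all by the authors.

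From these, rows that share an interval were counted as 1 peak, and intervals on chromosomes 1 to 20 were merged where they overlapped by at least 1 bp. A percentile is the rank of the strongest fold of a region within a list. Adipose shares were compared with two-sided exact sign-flip tests over libraries. Held-out recovery had been planned with exact permutation and sign-flip tests and is given as a description; p-values were adjusted over all 7 planned tests. Counts and widths of the members, and correlations, carry no test. Regions were named by 6 rules, 5 regions each: lowest percentile over the muscle lists, width, summits, runs, gaps and windows of 1 Mb. The members, rules and classes were chosen with earlier results of these data known. Alternatives were strong peaks, a common −log10 p floor of 4.27, the 50000 strongest peaks, 500 bp around summits, a base common to all libraries, a merging distance of 100 bp, adipose replicates 1 and 5 alone, and each replicate left out; classes of rank, and leaving the same number out of both tissues, were added after seeing the data. The merging was tested on simulated lists with planted regions. Gene names, promoters and motifs were not analysed here. Python 3.11.15 with NumPy 2.4.6, pandas 2.3.3 and matplotlib 3.10.9 were used.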

Additional observations from a re-analysis of the deposited data

Results flagged for a closer look

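For 62 measures over 5 libraries the gap between the most extreme library and the next was set against the whole range, and in 7 it exceeded 0.71 of that range. Chance sets off about 1 in 20 sets. At members the median fold enrichment was highest in muscle replicate 5, at 7.33. Muscle replicate 1 recovered 99.96% of the highest of 10 classes of rank when left out, where the other muscle libraries recovered all. Muscle replicate 1 also had the highest share of its peaks in the stretches of at least 1 Mb without a member, 3.93%, and 159 peaks in the stretch on chromosome 7 at 83701809 to 89724142, where the others had 19 to 34. At the member on chromosome 17 at 9952229 to 9955179 the fold was 8.42 in muscle replicate 5 and 5.67 to 6.09 in the others. Adipose replicate 4 had the highest share of strong adipose peaks in these stretches, 13.4%. Of the peaks of adipose replicate 1, 25.5% lay in regions of the other 4 adipose libraries, the lowest value in adipose.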

How the results depend on the processing

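Over 123 alternatives, 11 of them counts without a test, no difference changed sign. The sign-flip tests cannot pass 0.05 in any setting, so their p-values say nothing about stability. Only held-out recovery between the tissues, in its settings with a permutation test, could lie on either side of that threshold. Of its 21 settings 8 lay above it, where the main setting lay below. Among the 8 is the block, whose sign-flip test cannot pass the threshold, so that its place was fixed in advance. The number of members was 36690 with the 50000 strongest peaks per library, and 92218 to 95954 without 1 muscle library, which asks for 4 libraries by construction. The difference in recovery, 5.12 points, had a two-sided exact permutation p of 0.00794 and an adjusted p of 0.0556 over 7 tests, but its values share libraries and calls and the p is not used as support. The exact permutation p was above 0.05 for strong peaks (4.38 points, p = 0.357), at the common floor (4.95, p = 0.0714) and without each muscle replicate (2.93 to 3.41, p = 0.127 to 0.198), where muscle regions are asked for in 3 others and adipose regions in 4. Without 1 adipose replicate the difference was 8.96 to 10.4 points, and without the same number in both tissues 7.25 to 8.50, so that the settings that leave out a library ran from 2.93 to 10.4. The 50000 strongest peaks gave 3.53 points (exact permutation p = 0.0476). With the replicate number as a block the difference was 5.12 points (exact sign-flip p = 0.063). Rat numbers 1 to 5 occur in both tissues, and whether they mark the same animals is not stated. Correlations of same-numbered deviations over windows ran from -0.312 to 0.155, and 1 of 5 muscle libraries correlated best with its own number, so a pairing was not shown. Without 1 muscle library, recovery was asked of regions of 3 others in place of 4, so its values are not the same measure as the main ones. They were 12.5 to 13.7 points for widest against narrowest (9.88 in the main setting) and 23.3 to 25.1 for strongest against weakest (17.9). Without 1 library of either tissue, the adipose differences were 19.2 to 23.9 (members against regions of 1 library fewer), 28.5 to 30.9 (wide against narrow), 23.5 to 27.2 (many against 1 summit) and -14.7 to -12.9 (close against isolated). Where a muscle library was left out, members were regions of 4 libraries. The 500 bp setting leaves no region under 500 bp, so only the comparisons of wide with narrow regions were not run in it. Held-out recovery with adipose replicates 1 and 5 alone has too few libraries and was not run. Depth is unknown, and a region listed in fewer libraries may lie below a list's limit.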

Other observations

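The same merging on the sex chromosomes, which were kept out of the members, gave 4429 muscle regions on chromosome X, of which 1638 (37.0%) were called in all 5 muscle libraries, or 10.2 per Mb. Their median width was 696.5 bp. On chromosome Y 12 of 29 muscle regions were called in all 5.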
